A study of Meleagris gallopavo with 3 samples.

Results

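The gap junction connexins of cultured turkey satellite cells were described by taking every row of the deposited table whose symbol begins with GJ, a letter from A to E and a number, and which had at least 10 exon reads in any library. Of 23976 genes in the table, 13 were connexins and 10 of these passed, of which 9 are described here, namely GJA1, GJA3, GJA4, GJA5, GJA9, GJB1, GJC1, GJD2 and GJD4. GJA10 and GJB2 did not pass, with at most 7 exon reads in any library. Sums and shares of connexins cover these 11 genes. The 3 libraries held satellite cells of the breast muscle (pectoralis) of 1-day-old turkeys, grown for 2 weeks before the groups were formed, with no treatment beyond the culture itself. Differentiated cells stayed attached in medium with 4% horse serum, in which they fused to myotubes. Suspended cells were detached and grown for months in rotated flasks. Undifferentiated adherent cells remained on gelatin-coated dishes, and both were fed 15% chicken serum. Each group was sequenced as 1 library from the pooled RNA of 3 experiments, so no spread between cultures could be measured, and no p-value is given.

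Connexins are membrane proteins that assemble into hexameric half-channels. Half-channels of neighbouring cells dock to form gap junctions, through which ions and small molecules pass. In developing muscle, myoblasts are coupled by gap junctions before they fuse, whereas mature fibres of mammals lack them. Different tissues are known for different connexins, and several of the genes described here are textbook genes of vessels, Schwann cells, neurons or lens rather than of muscle.

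Libraries are called by the headings of their columns. The Differentiating library held 22816125 exon reads, the Suspension library 23844835 and the Adherent library 17444865. The headings Suspension and Adherent were used in 2 ways in the deposited tables. A fold change that the authors named Suspension_vs_Differentiating equals, within 0.02 on the log2 scale, the ratio between the Adherent and Differentiating counts in 100% of 12207 genes. That named Adherent_vs_Differentiating equals the ratio between the Suspension and Differentiating counts in 100% of 12154 genes. The values do not show which use is right. The study's text takes the exchanged use, so that its adherent cells are the column headed Suspension here and its suspended cells the column headed Adherent. If the headings are exchanged, every direction between suspended and adherent cells turns, and each of these changes place in the comparisons with differentiated cells. Levels are given as CPM, exon reads scaled by the exon total of the library. Levels of different genes are compared on the deposited RPKM scale, which divides by exon length, while shares of reads and mean CPM are not corrected for length. The 95% intervals cover counting error only, and a call means that the CPM differed 2-fold or more, by 1 on the log2 scale. As a group, 5 myogenic markers summed to 1335 CPM in the Differentiating library, 6276 in the Suspension library and 3012 in the Adherent library, and none was at 0 in any of them. PAX7, DES and CHRNA1 were highest in the Suspension library, whereas MYF5, with 1.97, 29.7 and 263 CPM in the Differentiating, Suspension and Adherent libraries, and MYOD1, with 93.8, 768 and 1522 CPM, were highest in the Adherent library. Reads of the markers of endothelium, smooth muscle, Schwann cells and leukocytes were also counted in every library, and their values are given below. Some counts were very low, with 3 reads each for SOX10, TIE1, MMRN2 and CD3E in the Suspension library. Such counts do not show whether a cell type was present there. The endothelial, Schwann cell and leukocyte sums were highest in the Adherent library, that of Schwann cells almost wholly from SOX10. The smooth muscle and pericyte sum was highest in the Differentiating library. In bulk RNA, fewer cells of a type and less RNA per cell cannot be told apart.

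GJA1 (chromosome 2, 60886212 to 60895376), which encodes the widespread connexin of fibroblasts, myoblasts and heart muscle, had the highest RPKM of the connexins in the Differentiating and Suspension libraries. It has 2 annotated exons. Positions are those of the deposited table, whose header names no genome build. GJA1 had 1257 CPM (95% interval 1243 to 1272) in the Differentiating library, 301 (294 to 308) in the Suspension library and 35.4 (32.7 to 38.3) in the Adherent library. The 3 intervals lie far apart. The log2 ratio of GJA1 was 5.15 (5.03 to 5.27) for the Differentiating library over the Adherent library, a 35.5-fold difference. It was 3.09 (2.97 to 3.21) for the Suspension library over the Adherent library, and 2.06 (2.03 to 2.10) for the Differentiating library over the Suspension library. GJA1 was therefore highest in differentiated cells whichever way the headings are read, and only the order of the other libraries depends on them. On the RPKM scale its level of 301 exceeded that of 98.7% of the genes with at least 10 reads in the Differentiating library, its 67.8 that of 93.5% in the Suspension library and its 6.82 that of 59.4% in the Adherent library.

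Fibroblasts are a cell type that expresses GJA1. The 5 fibroblast markers in the table, COL1A2, COL3A1, PDGFRA, DCN and LUM, were all highest in the Differentiating library, as GJA1 was, and none was at 0 in any library. They summed to 57524 CPM in the Differentiating library, 16859 in the Suspension library and 9097 in the Adherent library, most of it from the collagen genes COL1A2 and COL3A1. The share of all genes highest in the Differentiating library was not taken. Between the Suspension and Adherent libraries the markers as a set did not follow GJA1. Of the 5, 1 was at least 2-fold higher and 3 lower in Suspension over Adherent, with a median log2 ratio of −2.87. Over all genes 20.4% were higher and 26.2% lower in this comparison. DCN had 2104, 164 and 1199 CPM in the Differentiating, Suspension and Adherent libraries, LUM 1521, 32.0 and 440 CPM, and PDGFRA 8.11, 0.0419 and 5.27 CPM. The Suspension value of PDGFRA came from 1 read. The part of fibroblast RNA in the level of GJA1 was not tested. Reads that span both exons of GJA1 numbered 1134, 286 and 10 in the Differentiating, Suspension and Adherent libraries, in the same order as its exon reads. They were 3.95%, 3.99% and 1.62% of its exon reads.

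**Figure D1:**
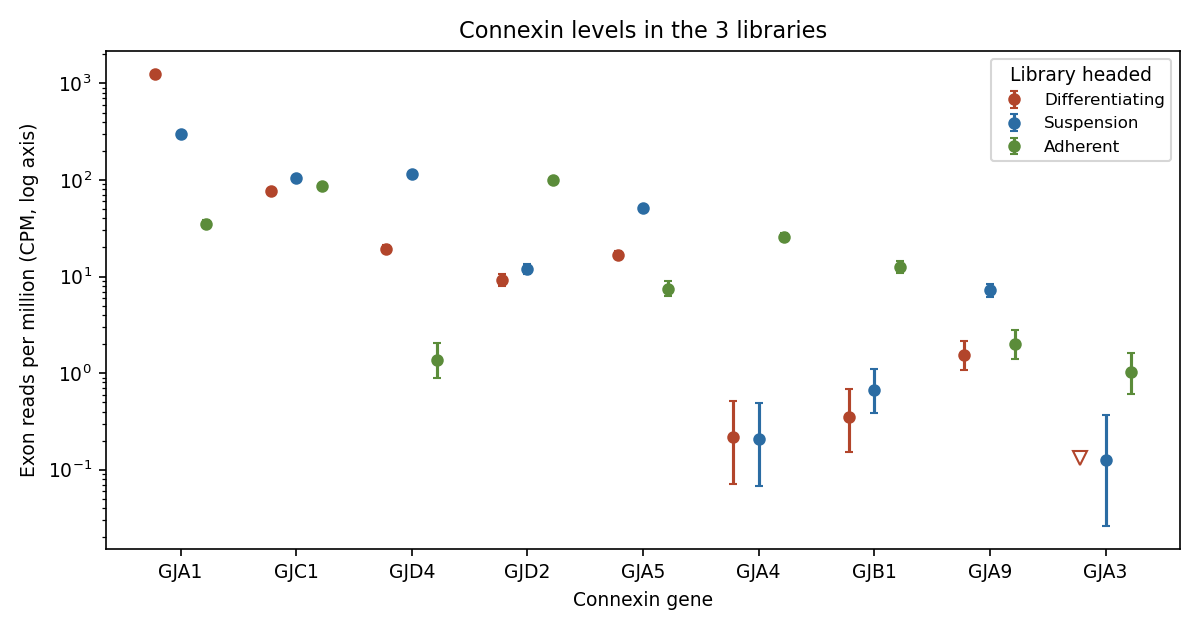
Level of each of the 9 connexins (CPM, log axis) in the Differentiating, Suspension and Adherent libraries, 1 library each. Bars are exact 95% Poisson intervals of the counts and the open triangle marks 0 reads, drawn at the floor of 3 reads; GJA1 spans 35.4 to 1257 CPM, while GJC1 stays between 77.0 and 105 CPM.

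GJC1 (chromosome 29, 389150 to 403286), a connexin of vascular smooth muscle and of the early heart, was the steadiest of the family. GJC1 had 77.0 CPM (73.4 to 80.7) in the Differentiating library, 105 (101 to 109) in the Suspension library and 86.4 (82.1 to 90.9) in the Adherent library. The intervals do not overlap, but no ratio reached 2-fold. Its log2 ratios were −0.17 (−0.27 to −0.07) for the Differentiating library over the Adherent library, 0.28 (0.18 to 0.37) for Suspension over Adherent and −0.44 (−0.53 to −0.35) for Differentiating over Suspension. The sign of the first depended on the scaling, since the deposited RPKM gave 0.15. Junction reads made up 9.33%, 9.54% and 8.69% of the exon reads of GJC1 in the same order of libraries. This was the highest share among the connexins in each library, but GJC1 has 18 annotated exons, the most of the connexins described. GJD2 and GJD4, annotated as 1 exon, can have no junction reads. Over all genes junction reads were 38.5%, 34.6% and 31.2% of exon reads in the same order of libraries. Smooth muscle and pericyte markers, 5 in the table, summed to 1279, 537 and 700 CPM in the same order, none at 0, and GJC1 was highest where this sum was lowest. ACTA2 and PDGFRB made up most of the sum and were highest in the Differentiating library, whereas MYH11 and KCNJ8 were highest in the Adherent library. CSPG4, with 43.3, 22.4 and 44.7 CPM in the Differentiating, Suspension and Adherent libraries, was about level between the first and the last. Its log2 ratio for Differentiating over Adherent was −0.04 (−0.18 to 0.09). MYH11, the myosin of mature smooth muscle, had 1.18, 1.01 and 197 CPM in the Differentiating, Suspension and Adherent libraries, and KCNJ8 had 18.5, 8.51 and 61.7 CPM.

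GJD4 (chromosome 6, 15026243 to 15033686) encodes a connexin whose mouse counterpart is known from developing and regenerating skeletal muscle. Its annotation is 1 exon of 7444 bases. GJD4 had 19.2 CPM (17.4 to 21.0) in the Differentiating library, 115 (111 to 119) in the Suspension library and 1.38 (0.881 to 2.05) in the Adherent library, the last from 24 reads. It was high in 1 undifferentiated library, low in the other, and between them in the differentiated one. The log2 ratio of GJD4 was 6.39 (5.81 to 7.03) for the Suspension library over the Adherent library, the widest difference between these libraries among the connexins higher in the Suspension library. This log2 ratio was 3.80 (3.21 to 4.46) for Differentiating over Adherent and −2.59 (−2.74 to −2.44) for Differentiating over Suspension. Its direction between differentiated and undifferentiated adherent cells therefore turns with the headings. The nearest annotated gene, LOC100550240, lies 624 bases away and had 12.1, 2.73 and 181 CPM in the Differentiating, Suspension and Adherent libraries, the opposite order to that of GJD4.

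GJA5 (chromosome 1, 89421288 to 89441681), a connexin of arterial endothelium and of the cardiac conduction system, followed the same order of libraries as GJD4. GJA5 had 16.7 CPM (15.1 to 18.5) in the Differentiating library, 51.1 (48.3 to 54.0) in the Suspension library and 7.51 (6.28 to 8.91) in the Adherent library. The intervals are separate. Its log2 ratios were 2.77 (2.5 to 3.04) for Suspension over Adherent and −1.61 (−1.78 to −1.45) for Differentiating over Suspension. For Differentiating over Adherent the log2 ratio of 1.15 had an interval, 0.86 to 1.45, that includes the 2-fold limit. Counting exon and intron reads together gave a log2 ratio of 0.86, below that limit. Intron reads were 6.39% of the gene reads of GJA5 in the Differentiating library, 3.49% in the Suspension library and 34.2% in the Adherent library, beside 12.0%, 15.2% and 24.3% over all genes. A pair of annotated genes that overlap GJA5 had 0 exon reads in all 3 libraries. Of 8 endothelial markers, 7 were highest in the Adherent library, where GJA5 was lowest, and ERG was highest in the Differentiating library. The share of all genes highest in the Adherent library was not taken. The part of endothelial RNA in the level of GJA5 was not tested.

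GJA9 (chromosome 25, 3767480 to 3772068) was highest in the Suspension library. GJA9 had 1.53 CPM (1.07 to 2.13) in the Differentiating library, 7.17 (6.14 to 8.33) in the Suspension library and 2.01 (1.40 to 2.79) in the Adherent library. The first and the last of these overlap, and their log2 ratio was −0.39 (−1.11 to 0.33). The log2 ratio was 1.84 (1.31 to 2.41) for Suspension over Adherent and −2.22 (−2.79 to −1.69) for Differentiating over Suspension. No read spanned its 2 exons in any library, and 37.1% of its gene reads in the Suspension library lay in the intron. MYCBP begins 89 bases away from GJA9 and had 14.7, 12.5 and 5.39 CPM in the Differentiating, Suspension and Adherent libraries, an order that GJA9 did not share. PAQR7, 1557 bases away, had 20.6, 51.0 and 14.5 CPM and was, like GJA9, highest in the Suspension library, and the part of shared reads was not tested. The sources used here do not state whether the counting used the strand.

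GJD2 (chromosome 5, 29102295 to 29106437), the main connexin of electrical synapses between neurons and of pancreatic beta cells, was high in 1 library. It is annotated as 1 exon. GJD2 had 9.20 CPM (8.0 to 10.5) in the Differentiating library, 12.1 (10.7 to 13.6) in the Suspension library and 101 (96.6 to 106) in the Adherent library. The first 2 libraries lie close together, with a log2 ratio of −0.39 (−0.66 to −0.13) for Differentiating over Suspension, and the Adherent library stands well above both. The log2 ratio was −3.46 (−3.67 to −3.25) for Differentiating over Adherent and −3.07 (−3.25 to −2.89) for Suspension over Adherent. LOC100303693, a highly covered gene 327 bases from GJD2, had 1986, 8260 and 2072 CPM in the Differentiating, Suspension and Adherent libraries. This neighbour was highest in the Suspension library and GJD2 in the Adherent library, while both were higher in the Suspension than in the Differentiating library. The part of shared reads in the level of GJD2 was not tested.

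GJA4 (chromosome 25, 2591342 to 2594086), known from endothelial cells and from the ovarian follicle, was found mainly in the Adherent library. GJA4 had 5, 5 and 447 exon reads in the Differentiating, Suspension and Adherent libraries, or 0.219 (0.0712 to 0.511), 0.210 (0.0681 to 0.489) and 25.6 (23.3 to 28.1) CPM. It was 117-fold lower in the Differentiating library than in the Adherent library, with a log2 ratio of −6.87 (−8.50 to −5.64), and 122-fold lower in the Suspension library, with −6.93 (−8.56 to −5.70). Between Differentiating and Suspension the log2 ratio was 0.06 with an interval from −2.06 to 2.18, so a difference was not detectable at this depth. DLGAP3, which lies 200 bases away, had 2.19, 6.75 and 5.56 CPM in the Differentiating, Suspension and Adherent libraries and did not share this pattern. Because GJA4 and GJA3 reached 10 reads only in the Adherent library, they could enter the set only by being high there.

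Endothelial markers other than ERG were, like GJA4, highest in the Adherent library. The 8 in the table, PECAM1, CDH5, TEK, TIE1, ERG, EGFL7, EMCN and MMRN2, summed to 75.0 CPM in the Differentiating library, 23.5 in the Suspension library and 503 in the Adherent library. All 8 reached 5 CPM in the Adherent library, 2 in the Differentiating library and 1 in the Suspension library, and none was at 0. Of the 8, 1 was at least 2-fold higher and 6 lower in Differentiating over Adherent, and 0 higher and 7 lower in Suspension over Adherent. Over all genes 17.8% were higher and 28.5% lower in the first, and 20.4% and 26.2% in the second. TEK and MMRN2 reached 10 reads only in the Adherent library, so they could pass only by being high there. CDH5, the cadherin that defines endothelial contacts, had 0.219, 0.629 and 89.4 CPM in the Differentiating, Suspension and Adherent libraries. ERG had 45.2, 18.5 and 17.4 CPM in that order. The part of endothelial RNA in the level of GJA4 was not tested.

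GJB1 (chromosome 9, 765631 to 767413), the connexin of hepatocytes and of myelinating Schwann cells, was likewise highest in the Adherent library. GJB1 had 8, 16 and 219 exon reads in the Differentiating, Suspension and Adherent libraries, or 0.351 (0.151 to 0.691), 0.671 (0.384 to 1.09) and 12.6 (10.9 to 14.3) CPM. The intervals of the first 2 overlap, and their log2 ratio was −0.94 (−2.37 to 0.37). The log2 ratio of GJB1 was −5.16 (−6.39 to −4.16) for Differentiating over Adherent and −4.23 (−5.06 to −3.49) for Suspension over Adherent. In the Adherent library 8 reads spanned the exons of GJB1, whereas 0 did in each of the others. The neighbouring gene LOC100551358, 97 bases away, had 0.0438, 0.336 and 3.44 CPM in the Differentiating, Suspension and Adherent libraries, the same order as GJB1. ZMYM3, 2289 bases away, had 30.1, 32.5 and 77.8 CPM, also in that order, and the part of shared reads was not tested.

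A Schwann cell marker stood beside GJB1 in the same library. Of 3 in the table, the glial transcription factor SOX10 had 0.351, 0.126 and 65.7 CPM in the Differentiating, Suspension and Adherent libraries. S100B had 0.394, 0.252 and 0.172 CPM and FABP7 had 1.62, 0.629 and 1.55 CPM in the same order. Each of them stayed below 5 CPM in all 3 libraries and was highest in the Differentiating library, unlike SOX10. S100B had fewer than 10 exon reads in each library. The 3 markers summed to 2.37, 1.01 and 67.4 CPM in the same order, and none was at 0. The 5 leukocyte markers in the table, PTPRC, CSF1R, CD74, LCP1 and CD3E, summed to 10.3, 12.5 and 107 CPM, and none was at 0. CD3E had fewer than 10 exon reads in each library. The part of Schwann cell or leukocyte RNA in the level of GJB1, or of GJD2, was not tested.

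**Figure D2:**
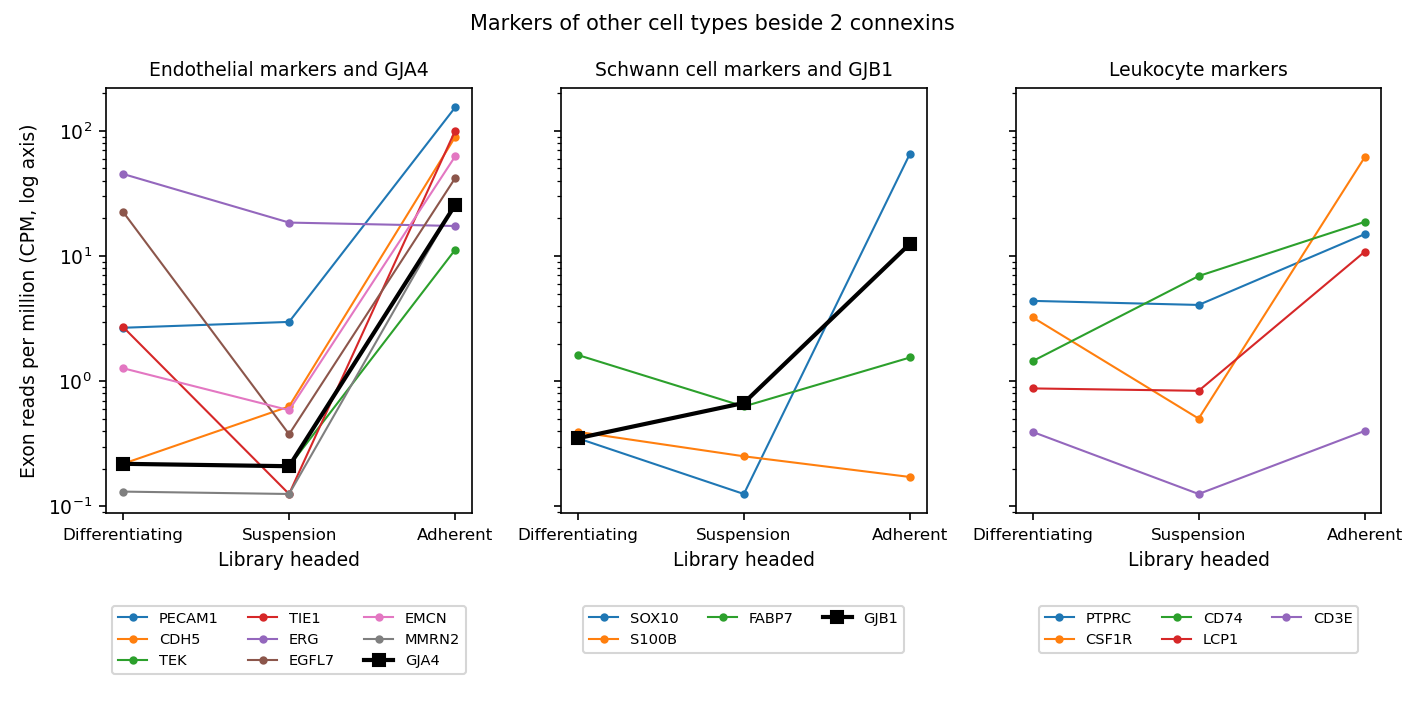
Level (CPM, log axis) of endothelial, Schwann cell and leukocyte markers in the Differentiating, Suspension and Adherent libraries, with GJA4 (25.6 CPM in the Adherent library) and GJB1 (12.6 CPM there) as black lines, 1 library each. No marker shown is at 0. Highest in the Adherent library are 7 of 8 endothelial markers, 1 of 3 Schwann cell markers and the 4 leukocyte markers with at least 10 reads. The share of all genes highest there was not taken. CD3E, with 9, 3 and 7 reads in the same order of libraries, is about level between the Differentiating and Adherent libraries.

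GJA3 (chromosome 1, 177822499 to 177831771), a lens connexin, reached only 0.146 RPKM, in the Adherent library, the lowest peak level of the 9 members on this scale. GJA3 had 0, 3 and 18 exon reads in the Differentiating, Suspension and Adherent libraries, the last being 1.03 CPM (0.612 to 1.63). With 0 reads set to the floor of 3 reads in the library, GJA3 was 7.85-fold lower in the Differentiating library than in the Adherent library. This value has no interval and is not a lower bound. For Suspension over Adherent the log2 ratio was −3.04 with an interval from −5.44 to −1.26. Intron reads of GJA3 numbered 1, 3 and 16 in the same order, and no read spanned its exons.

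Of the connexins with a ratio, GJA1, GJA5 and GJD4 were at least 2-fold higher in the Differentiating library than in the Adherent library, and GJA3, GJA4, GJB1 and GJD2 at least 2-fold lower. These are 3 and 4 of 9 connexins, where 17.8% and 28.5% of all 14075 genes with a ratio were higher and lower. Between the Suspension and Adherent libraries, GJA1, GJA5, GJA9 and GJD4 were higher and GJA3, GJA4, GJB1 and GJD2 lower. These are 4 and 4 of 9, beside 20.4% and 26.2% of 14067 genes. In the Differentiating library, GJA1 alone was higher than in the Suspension library, and GJA5, GJA9 and GJD4 were lower. These are 1 and 3 of 8 with a ratio, beside 11.6% and 16.5% of 13651 genes. GJA3 and GJA4 had to be among the lower genes in the Differentiating and Suspension libraries, since they passed only through the Adherent one. The comparisons share libraries, so they are not independent of each other. The median log2 ratio of all genes, to be read beside the medians of the lists that follow, was −0.17, 0.02 and −0.17 in these comparisons.

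**Figure D3:**
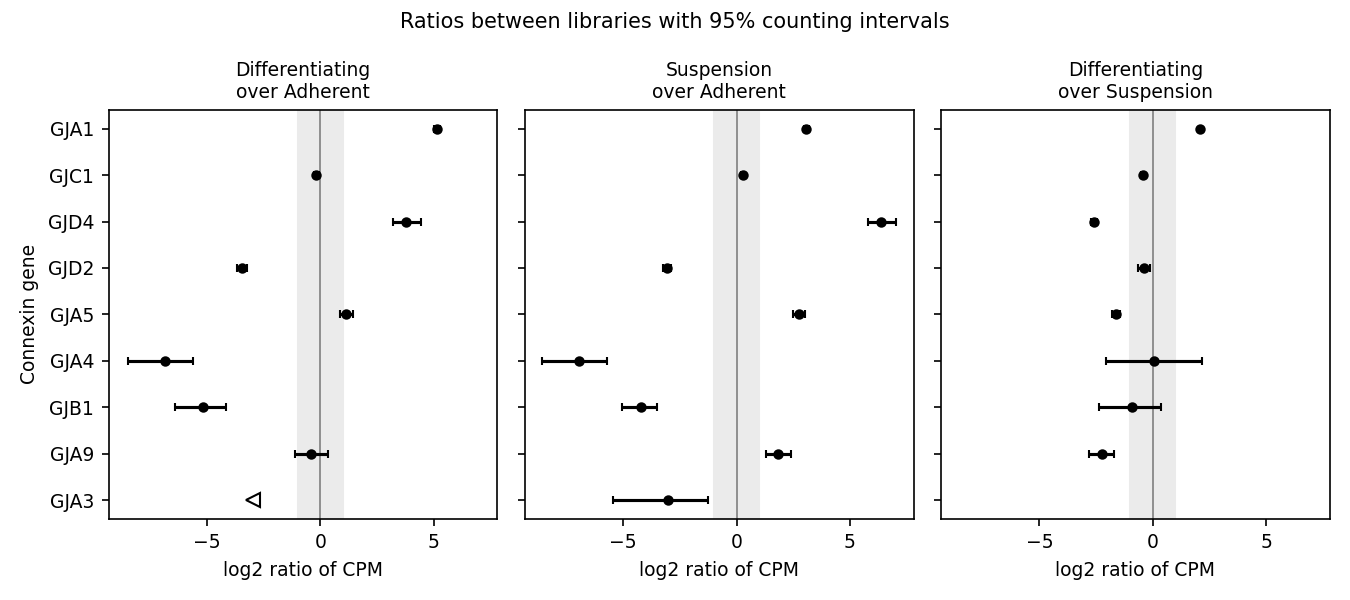
Log2 ratio of CPM of each connexin for Differentiating over Adherent, Suspension over Adherent and Differentiating over Suspension, with exact 95% counting intervals and the range below 2-fold shaded. The open arrow marks a ratio with 0 reads set to the floor, which has no interval. GJA3 has no ratio in the last panel. GJA1 lies above 2-fold in each panel and GJC1 within the shaded range in each.

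The make-up of the connexin signal differed between the libraries, and shares within a library need no scaling between them. The 11 connexins together had 1382 CPM in the Differentiating library, 592 in the Suspension library and 274 in the Adherent library. Without GJA1 the sums were 124, 291 and 238 CPM. GJA1 took 91.0% (95% Clopper-Pearson interval 90.7% to 91.3%) of their reads in the Differentiating library, where GJC1 followed with 5.57% and GJD4 with 1.39%. In the Suspension library GJA1 took 50.8% (49.98% to 51.6%), GJD4 19.4%, GJC1 17.7% and GJA5 8.63%. In the Adherent library GJD2 took 37.0% (35.6% to 38.4%), GJC1 31.6%, GJA1 12.9%, GJA4 9.37% and GJB1 4.59%. The signal was thus led by GJA1 in the Differentiating and Suspension libraries and by GJD2 in the Adherent library.

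Per exon length the leading genes were the same. GJA1 had 95.03% of the summed RPKM of the connexins in the Differentiating library and 65.5% in the Suspension library, and GJD2 had 34.2% in the Adherent library. The short GJB1, with 1127 bases of exon, weighed more by this measure, with 15.6% in the Adherent library, close to GJC1 with 15.5%, GJA4 with 15.4% and GJA1 with 15.0%. Expressed as the inverse of the summed squared shares of reads, the connexins corresponded to 1.20 equally read genes in the Differentiating library, 2.98 in the Suspension library and 3.77 in the Adherent library. From shares of the summed RPKM the same measure was 1.11, 2.17 and 4.71 in that order. In RPKM, GJC1 with 7.78 and GJA5 with 3.45 came after GJA1 in the Differentiating library. GJD4 with 11.5, GJC1 with 9.97 and GJA5 with 9.94 came after it in the Suspension library, and lay close together. By the same scale GJD2 led the Adherent library with 15.6, and GJB1, GJC1, GJA4 and GJA1 had 7.09, 7.03, 7.02 and 6.82, values that lie close together.

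**Figure D4:**
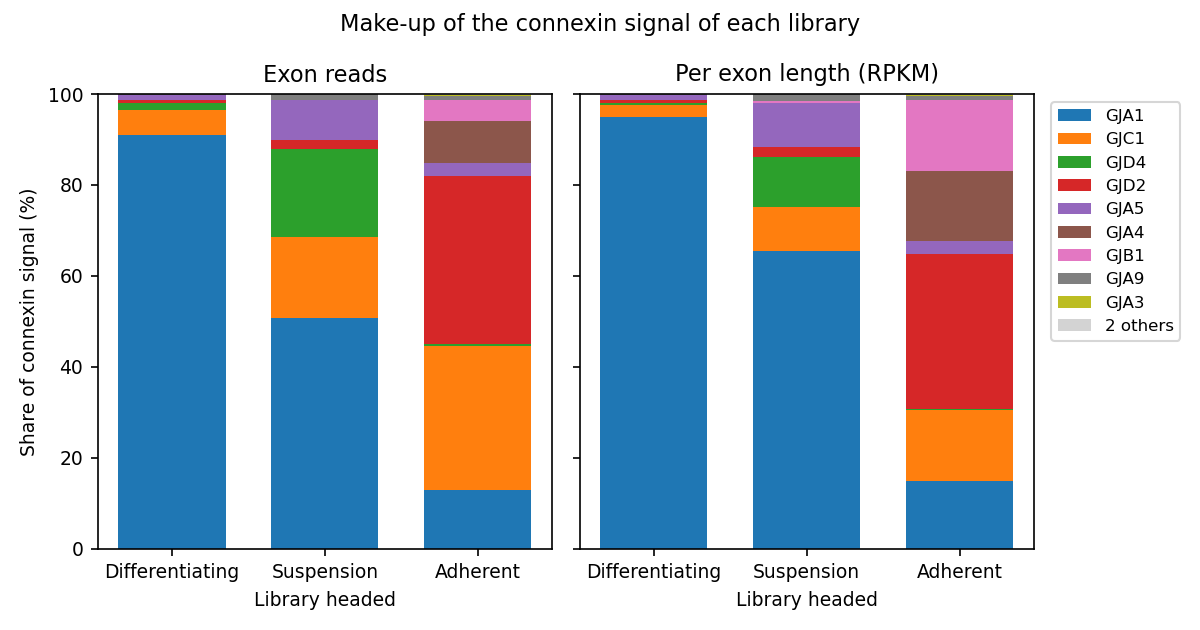
Share of each connexin (%) in the exon reads (left) and in the summed RPKM (right) of the 11 connexins, for the Differentiating, Suspension and Adherent libraries, 1 library each. GJA1 takes 91.0%, 50.8% and 12.9% of the reads in that order, and GJD2 leads the Adherent library with 37.0%.

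Genes whose products bind, anchor or modify the GJA1 protein were taken as a list of 23, of which 18 were in the table and all passed 10 reads. The cadherin gene CDH2, which joins myoblasts to each other, had 143 CPM in the Differentiating library, 621 in the Suspension library and 15.6 in the Adherent library. DBN1, which links GJA1 to actin, had 312, 1374 and 48.7 CPM, and the muscle caveolin CAV3 had 93.7, 321 and 49.4 CPM in the same order. These 3 were highest in the Suspension library, whereas GJA1 was highest in the Differentiating library. YWHAQ and CTNNB1, with the highest mean CPM of the list, had no ratio of 2-fold, with 825, 897 and 491 CPM for YWHAQ and 678, 884 and 597 CPM for CTNNB1. Of the 18, 3 were at least 2-fold higher and 3 lower in Differentiating over Adherent with a median log2 ratio of 0.25, 4 higher and 3 lower in Suspension over Adherent with 0.48, and 0 higher and 5 lower in Differentiating over Suspension with −0.36. Over all genes 17.8% were higher and 28.5% lower in the first of these comparisons, 20.4% and 26.2% in the second, and 11.6% and 16.5% in the third.

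The pannexins and other large-pore channels, which pass small molecules without docking between cells, had 10 of 14 listed genes in the table, and 8 passed 10 reads. CALHM2, which encodes a channel related to the ATP-releasing calcium homeostasis modulators, had 25.9 CPM in the Differentiating library, 11.6 in the Suspension library and 3.32 in the Adherent library. Its log2 ratio was 2.96 (2.57 to 3.38) for Differentiating over Adherent. The pannexin PANX2 had 13.2, 10.9 and 3.32 CPM in the same order. LRRC8D, a subunit of the volume-regulated anion channel, had 21.1, 44.0 and 9.63 CPM, LRRC8A, its obligate subunit, 33.5, 39.0 and 15.6 CPM, and LRRC8C 38.0, 24.2 and 24.7 CPM. No gene of the list was at least 2-fold lower than in the Adherent library. In Differentiating over Adherent 4 of 8 were higher and the median log2 ratio was 1.00, and in Suspension over Adherent 5 of 8 were higher with a median of 1.23. In Differentiating over Suspension 1 was higher and 1 lower, with a median of −0.18. The shares over all genes were 17.8%, 20.4% and 11.6% higher in these comparisons, and 28.5%, 26.2% and 16.5% lower.

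Genes nearest in pattern were taken for each connexin with at least 5 CPM in 1 library, by the distance between log2(CPM + 0.5) values centred over the 3 libraries, among genes with a symbol that is no LOC number and at least 5 CPM in any library. With 3 libraries a pattern has only 2 free values, so near matches are common and are given as a description. PAWR, CTHRC1 and the fibronectin gene FN1 were nearest to GJA1, at distances of 0.141, 0.379 and 0.388, and FN1 had 15529, 3424 and 586 CPM in the Differentiating, Suspension and Adherent libraries. MYO16, TNNT2, a troponin gene of cardiac and embryonic muscle, and PHLDA1 were nearest to GJD4, at 0.184, 0.377 and 0.442, and TNNT2 had 943, 4225 and 97.1 CPM in the same order. DRP2, SLC16A7 and SCARF1 were nearest to GJA4, at 0.0339, 0.0584 and 0.0937. DRP2, which encodes a dystrophin-related protein of myelinating Schwann cells, had 0.131, 0.126 and 21.8 CPM. Nearest to GJB1 were SBK2, HSPA12A and RGS11, at 0.0220, 0.0523 and 0.0542, and to GJD2 ABLIM1, SGCZ and NPTX1, at 0.0924, 0.105 and 0.112. HOMER3, PDLIM1 and SCG3 lay nearest to GJA5, at 0.0139, 0.0443 and 0.0518. MSMP, the muscle gene MYOZ2 and TSPAN12 lay nearest to GJA9, at 0.0476, 0.0623 and 0.0671. For GJC1 these were HPS4, NAP1L4 and MARK1, at 0.00464, 0.0107 and 0.0135.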

How the data were processed

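Illumina libraries of 3 cultures, 1 per group of pooled RNA, were analysed. Reads were demultiplexed with bcl2fastq 2.20 and aligned with STAR 2.5.2b, per the submitters' processing notes, and featureCounts is named in the study's methods. The study's methods name an older Ensembl turkey assembly, but the sources used here do not say whether the deposited table was made that way. Deposited counts are unscaled reads on exons, introns, whole genes and exon junctions, and in the deposited RPKM columns each count is scaled by exon length and by 1 total per library. Fold-change columns, scores with a sign that the authors took from counts without scaling, served only to check the headings. Positions are the table's, with 1 added to the start, since its starts lay 1 below those of RefSeq Turkey_5.1 in 7 of 11 connexins and within 2 kb in all 11.

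CPM were taken over exon reads, whose totals per library are given above, so that 1 read is 0.0438, 0.0419 and 0.0573 CPM in the Differentiating, Suspension and Adherent libraries. Intervals are exact Poisson or Clopper-Pearson. A count of 0 was set to a floor of 3 reads, and pairs of counts that both lay at or under it gave no ratio. Reads unique to 1 gene made up 96.1%, 95.5% and 95.5% of exon reads. Python 3.11.15, numpy 2.4.6, pandas 2.3.3, scipy 1.17.1 and edgeR 4.0.16 (TMM factors only) were used. The ratios were tested only on counts simulated for well-covered genes without spread between cultures, so low counts and counts of 0 were not covered. The members and lists were chosen with earlier results of these data known. Some genes are not reported here and were left out of the member counts, sums and lists whatever their values. The text names every other connexin, of each list the 3 members with the largest ratio and the 2 with the highest mean, and the 3 genes nearest in pattern. The neighbouring genes lie outside that rule and were chosen after their values were seen, and marker genes are named as lists or as defining genes. The alternatives were TMM, median-of-ratios and upper quartile scaling, unique exon or total gene reads, RPKM, a pseudocount, other minimums and fold limits, intervals wholly beyond 2-fold, and exchanged headings.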

Additional observations from a re-analysis of the deposited data

Results flagged for a closer look

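GJA10 and GJB2, connexins under 10 exon reads, showed more intron than exon reads in some libraries, which lies outside the exon counts and above the floor of 3 reads. GJA10 had 9, 4 and 18 intron reads in the Differentiating, Suspension and Adherent libraries, beside 0, 1 and 0 exon reads. GJB2 had 8 intron reads in the Adherent library, beside 7 exon reads. Over all genes intron reads were 12.0%, 15.2% and 24.3% of gene reads in the Differentiating, Suspension and Adherent libraries.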

How the results depend on the processing

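With the headings Suspension and Adherent exchanged, 3 connexins higher in differentiated than in adherent cells became 1, and 1 higher than in suspended cells became 3. The log2 ratio of differentiated over adherent cells was then 0.064 for GJA4, −1.61 for GJA5 and −2.59 for GJD4, and that of differentiated over suspended cells 1.15 for GJA5 and 3.80 for GJD4. For suspended over adherent cells it was −3.09 for GJA1, 3.04 for GJA3, 6.93 for GJA4, −2.77 for GJA5, −1.84 for GJA9, 4.23 for GJB1, 3.07 for GJD2 and −6.39 for GJD4. With a minimum of 1 read, 2 connexins were higher in the Differentiating library than in the Suspension library, the second being GJB2 with 4 reads against 1. With total gene reads, 5 connexins instead of 3 were lower in the Differentiating than in the Suspension library. The added ones were GJB1, with 8 against 18 gene reads, and GJA3, with 1 against 6. By RPKM the leading shares were 95.03% and 65.5% for GJA1 in the Differentiating and Suspension libraries and 34.2% for GJD2 in the Adherent library. TMM scaling raised all log2 ratios of Differentiating over Adherent by 0.18, of Suspension over Adherent by 0.02 and of Differentiating over Suspension by 0.17. Under TMM, median-of-ratios and upper quartile scaling, unique reads and RPKM, no 2-fold call of a member that had a ratio changed. The small log2 ratio of GJC1 for Differentiating over Adherent, −0.17 by CPM, changed sign with the scaling. It was 0.02 under TMM scaling, −0.008 under median-of-ratios scaling and 0.15 by RPKM. With total gene reads GJA5 lost its call in Differentiating over Adherent, at 0.86, and GJB1 gained one in Differentiating over Suspension, at −1.05. With a pseudocount of 1 CPM, GJA3 lost its call in Suspension over Adherent, at −0.85. Counts of GJA3, GJA4 and GJB1 limit their ratios. No paired analysis was possible because each group has 1 library.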

Other observations

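Tight junction genes, which seal epithelial and endothelial contacts, were taken as a further list. Of 18 listed, 13 were in the table and 12 had at least 10 reads, and 8 of these 12 were highest in the Adherent library. The share of all genes that were highest there was not taken, so this count does not set the list apart from other genes. Because CLDN3, CLDN11 and CLDN19 reached 10 reads only in the Adherent library, they could pass only by being high there. CLDN10 likewise passed only through the Differentiating library. The 8 of 12 above and the counts of higher and lower genes below include these members. ESAM, an adhesion molecule of endothelial contacts, had 0.789 CPM in the Differentiating library, 1.72 in the Suspension library and 77.6 in the Adherent library, a log2 ratio of −6.62 (−7.38 to −5.95) for Differentiating over Adherent. CLDN11, the claudin of myelin, had 0.351, 0.377 and 22.9 CPM in the same order. CLDN19, a claudin of Schwann cells and kidney, had 8.31 CPM in the Adherent library and 0 reads in the others. With 0 reads set to the floor of 3 reads per library, CLDN19 was 63.2-fold lower in the Differentiating library and 66.1-fold lower in the Suspension library. These values have no interval and are not lower bounds. JAM3 and MARVELD3 had the highest mean CPM. JAM3, a junctional adhesion molecule known from myoblasts, had 341, 1479 and 401 CPM, with a log2 ratio of 1.88 (1.85 to 1.92) for Suspension over Adherent. MARVELD3 had 41.9, 43.8 and 80.5 CPM. Of 12 with at least 10 reads, 1 was at least 2-fold higher and 5 lower in Differentiating over Adherent, with a median log2 ratio of −0.94, and 1 higher and 5 lower in Suspension over Adherent, with −0.82. Of 11 with a ratio in Differentiating over Suspension, 1 was higher and 3 lower, with −0.06. Over all genes 17.8% were higher and 28.5% lower in Differentiating over Adherent, 20.4% and 26.2% in Suspension over Adherent, and 11.6% and 16.5% in Differentiating over Suspension.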
